A study of Drosophila melanogaster with 3 samples.

Results

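The genes described here are 37 Drosophila genes for synaptic transmission and neuronal excitability. They were taken by name and not by a measured value, though earlier results of these data were known. They are 37 of the 13968 protein-coding genes annotated on the chromosome arms, and all 37 names matched. The binding data are chromatin immunoprecipitation with sequencing (ChIP-seq) of FoxP, a forkhead transcription factor also called fd85E, from whole prepupae of mixed sex and unstated age. The animals came from 1 transgenic strain, fd85E-GFP, whose tagged protein, fd85E-eGFP, is FoxP with a green fluorescent protein (GFP) at its C-terminal end, and an antibody to GFP was used for the pull-down. There were 3 biological replicates in 1 group, with no other genotype, stage or treatment, so no comparison between groups could be made. Whether the line still makes untagged FoxP is not given in the sources used here.

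Synaptic transmission runs from an action potential, carried by voltage-gated sodium and potassium channels, to calcium entry at the active zone, fusion of a transmitter-filled vesicle and the opening of receptors on the next cell. Forkhead factors bind DNA through a winged-helix domain, and fly FoxP is known for roles in neurons that serve motor learning and decision making. In chromatin of whole animals, binding in few cells and weak binding in many cells cannot be told apart, and neurons are only some of the cells.

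Each deposited list holds regions with a summit, the position of the strongest signal, and a signal value whose scale is not stated. Regions were ranked by that value within each list, rank 1 being the strongest. The pooled list, made from the reads of all 3 replicates, holds 30000 regions, and by its name it includes background. The thresholded list, kept by an irreproducible discovery rate step between replicates, equals the 2415 strongest of them, the last having a signal of 134.2. A gene was counted when a summit lay in it or up to 2 kb upstream of its 5′ end. Read depths were not analysed here, and intervals below are 95% intervals (Wilson for shares, exact Poisson for densities) that cover counting error over genes or summits only.

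Few of these genes had a strong FoxP summit. Only 3 of the 37, elav, Syx1A and KCNQ, had a summit of the thresholded list, which is 8.11% (interval 2.8 to 21.3%) beside 14.6% of all protein-coding genes. With the weak regions of the pooled list included, 35 of 37 had a summit (94.6%, 82.3 to 98.5%) beside 56.5% of all genes, and GluRIIB and Gad1 had none. These 37 genes have a median length of 29.7 kb beside 2.16 kb over all genes, and shares at matched length are given below. Within 500 bp of a transcription start, 11 of 37 had a pooled summit (29.7%, 17.5 to 45.8%) beside 37.8% of all genes. In all, 182 pooled summits lay at these genes, with a median of 4 and at most 22 per gene.

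**Figure D1:**
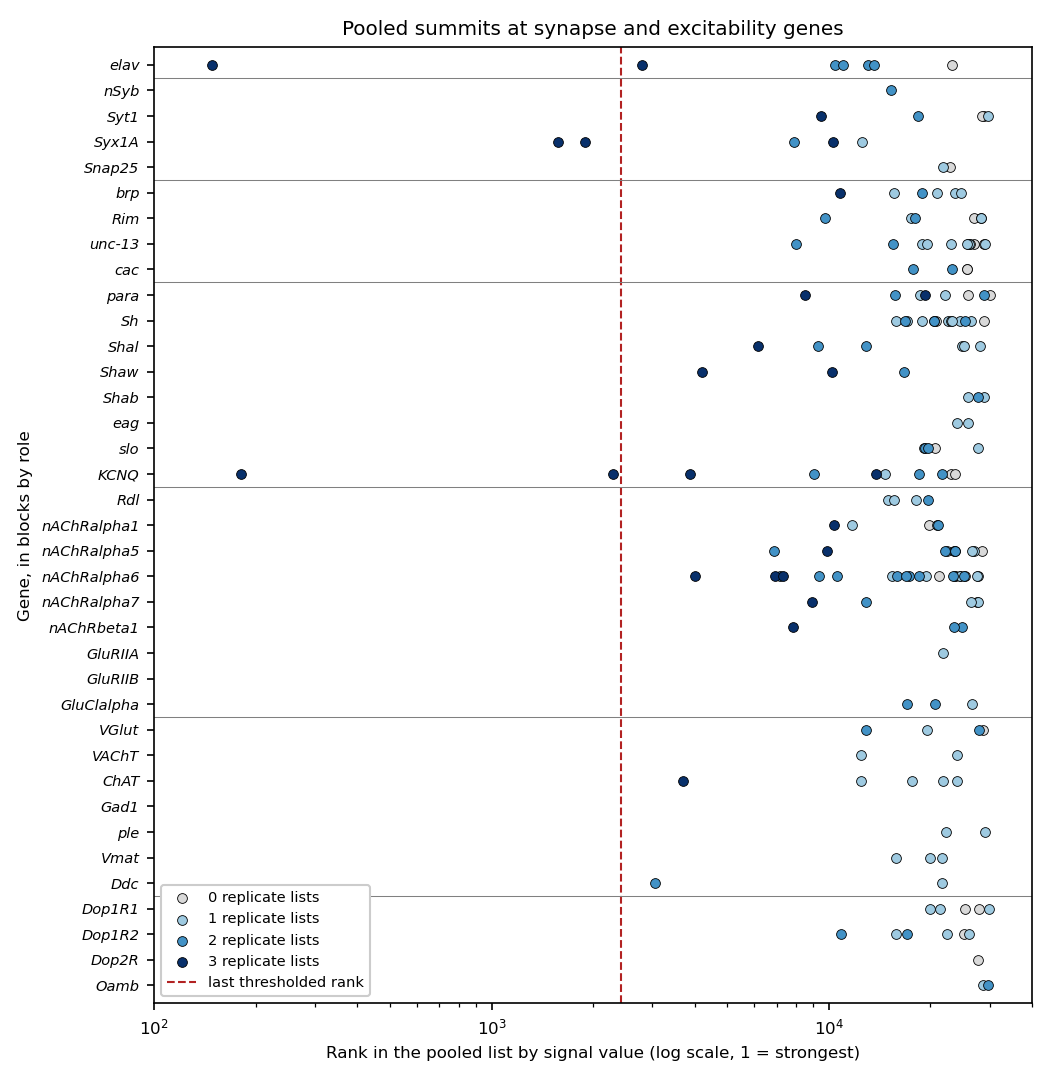
Rank in the pooled list (log scale, 1 is the strongest) of every pooled summit at the 37 genes, 1 line per gene in blocks by role; the shade gives the number of replicate lists that hold the summit and the dashed line the last thresholded rank, 2415. Only elav, Syx1A and KCNQ have points left of the line, and the dark points held by all 3 lists are mostly at ranks under 10000.

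The strongest summit belonged to elav, the RNA-binding protein gene that is active in nearly all neurons and serves as their standard marker (chrX:509235-523226, minus strand, dm6). This summit lay 221 bp upstream of the start, with a pooled signal of 468.6 and rank 148. Its signal was 173.2, 164.7 and 129.3 in replicates 1, 2 and 3, where it ranked 145, 133 and 166, so all 3 libraries placed it at nearly the same height. A second elav summit, in the intron 603 bp downstream of the start, had a signal of 124.0 and rank 2802, just outside the threshold, and ranked 3280, 2916 and 3097 in the replicates. The other 5 elav summits were weak, with ranks from 10429 to 23128. Of these, 3 lay in the untranslated region at the far end of the gene, toward the neighbouring gene arg.

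The 201 bases around the strongest elav summit are shown because they are the best-ranked bound sequence of the set (chrX:523347-523547, minus strand, reference release 6). Capitals mark 1 match to the forkhead-type heptamer TATTTAC and 2 matches to CTCTC, the reverse complement of GAGAG. The sequence is read in the direction of elav.
elav, 221 bp upstream: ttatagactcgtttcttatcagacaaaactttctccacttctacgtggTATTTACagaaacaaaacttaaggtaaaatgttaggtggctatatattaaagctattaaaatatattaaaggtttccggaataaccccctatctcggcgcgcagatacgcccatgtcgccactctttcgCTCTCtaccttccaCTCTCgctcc

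Vesicle fusion needs the membrane proteins Syx1A and Snap25 (SNAREs of the plasma membrane), nSyb (the SNARE of the vesicle) and Syt1 (the calcium sensor). Of these 4 genes 1, Syx1A, had a thresholded summit, beside 14.6% of all protein-coding genes. Syx1A (chr3R:24101600-24105763, minus strand, 4.16 kb) had 2 thresholded summits among its 5 pooled ones. The first lay 17 bp downstream of the start, with a pooled signal of 168.5 and rank 1579, and ranked 2127, 1214 and 2600 in replicates 1 to 3. The second lay 638 bp upstream, with a signal of 153.9 and rank 1887, and ranked 1394, 3185 and 3040. Each was thus among the 2415 strongest regions of some replicates and not of others. Given below, on the minus strand, are the 83 reference bases just before the transcript (chr3R:24105764-24105846), which end short of the first summit, and the 201 bases around the second (chr3R:24106301-24106501). Neither stretch holds a match to the 3 motifs searched, and the bases at the first summit itself, which are transcribed, are not shown.
Syx1A, before the start: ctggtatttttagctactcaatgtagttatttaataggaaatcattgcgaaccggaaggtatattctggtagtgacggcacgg
Syx1A, 638 bp upstream: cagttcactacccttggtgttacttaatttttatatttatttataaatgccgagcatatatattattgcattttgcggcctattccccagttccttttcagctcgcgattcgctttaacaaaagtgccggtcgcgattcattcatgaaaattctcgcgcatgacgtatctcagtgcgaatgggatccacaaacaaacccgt

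The other vesicle fusion genes had weak regions. The best Syt1 summit lay in its untranslated region, with a signal of 61.7 and rank 9457, and was held by all 3 replicate lists at ranks 11306, 7054 and 8273. For nSyb, the only pooled summit ranked 15287 and was held by 2 lists. In replicate 2 alone, nSyb had a summit at rank 2230 with a signal of 49.4, 1864 bp upstream of its start, and no pooled summit lay within 200 bp of it. Snap25, the longest gene of the set at 225 kb, held only 2 pooled summits, the better one at rank 21858 and in 1 replicate list.

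Voltage-gated channels set the excitability of the membrane. Of their 8 genes 1, the M-type potassium channel gene KCNQ, had thresholded summits, beside 14.6% of all protein-coding genes. Its best summit had a pooled signal of 431.8 and rank 181, with signals of 128.1, 153.2 and 151.4 and ranks of 326, 166 and 114 in replicates 1 to 3. A neighbouring one had a signal of 138.2 and rank 2286, just inside the threshold, and ranked 2762, 3755 and 2284. Both lay in an intron, 796 and 1049 bp upstream of the start of mlt, a gene inside KCNQ, and at least 4850 bp from any start of KCNQ. The summits at the start of KCNQ itself, 155 and 383 bp upstream, ranked 9041 and 18468 and were each held by 2 replicate lists.

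**Figure D2:**
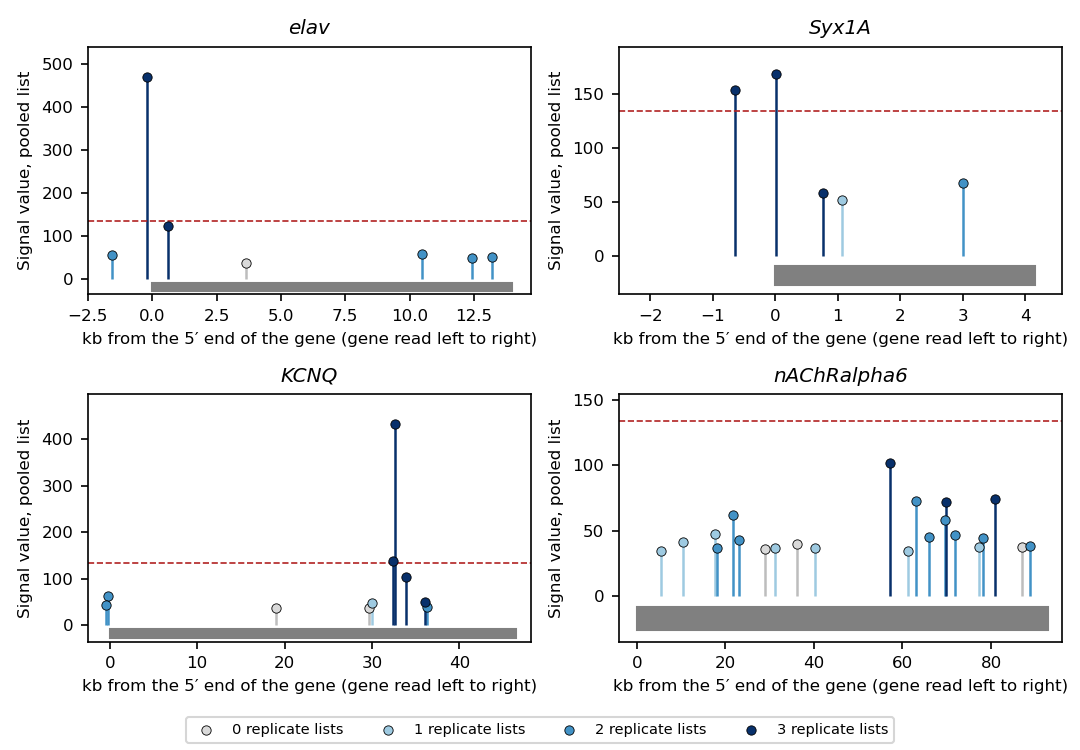
Signal value in the pooled list (vertical) of each pooled summit by its distance in kb from the 5′ end of elav, Syx1A, KCNQ and nAChRalpha6; the grey bar is the gene, the dashed line the last thresholded signal, 134.2, and the shade the number of replicate lists holding the summit. The strong summits of elav and Syx1A stand at the 5′ end, those of KCNQ stand far inside the gene, and all 22 of nAChRalpha6 stay under the line.

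Among the other channels, Shaw, which encodes a potassium channel of the Kv3 type, ranked best. Its summit in an intron, 1480 bp downstream of a start, had a signal of 99.1 and rank 4211, and ranked 3848, 7050 and 5482 in the replicates. Shal, a potassium channel of the Kv4 type, had its best summit at rank 6166, with replicate ranks of 4049, 6896 and 8079, but that summit lay 4 bp from the start of the neighbouring gene CG9330 and 1681 bp from that of Shal. The sodium channel gene para had its best summit in an intron, 988 bp downstream of a start, at rank 8513 and at ranks 16078, 5357 and 16611 in the replicates, so all 3 lists held it but only 1 had it among its best 10000. For Sh, the Shaker potassium channel gene, 14 pooled summits were spread over 139 kb, with a best rank of 15828. The potassium channel genes slo (activated by calcium), eag and Shab had best ranks of 19117, 23903 and 25879, each held by 1 replicate list.

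At the active zone, where vesicles dock and calcium enters, none of the 4 genes had a thresholded summit, beside 14.6% of all protein-coding genes. The 28 pooled summits of these 4 genes had signals from 33.6 to 67.7. The best summit of unc-13, the vesicle priming factor, lay in an intron at rank 7988, and ranked 4882 in replicate 1 and 8436 in replicate 3 with no region in replicate 2. The scaffold gene Rim had its best summit at rank 9754, 6201 bp from its start and 999 bp upstream of that of CG43445. It was held at rank 5136 in replicate 1 and 22647 in replicate 2 and by no region in replicate 3. Support for both was thus uneven between libraries. For brp, the Bruchpilot scaffold gene, rank 10816 was the best, and all 3 lists held that summit at ranks from 12456 to 20449. The calcium channel gene cac reached rank 17702.

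**Figure D3:**
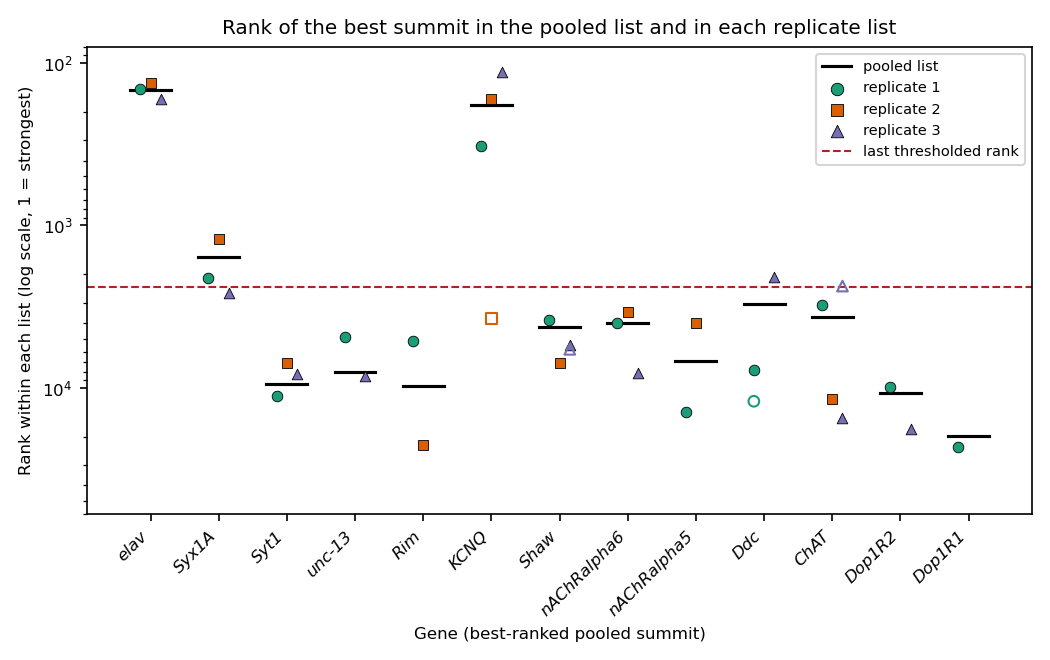
Rank (log scale, 1 at the top) of the best pooled summit of the named genes in the pooled list (black line) and in each replicate list (filled symbols); hollow symbols are further regions of the same replicate list that hold the summit, and a missing symbol means no matching region. The 3 replicates lie close together for elav, at ranks 133 to 166, and spread widely for ChAT. For Rim, replicates 1 and 2 lie far apart and replicate 3 has no matching region.

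The 9 ligand-gated receptor genes held 53 pooled summits, none of them thresholded, while 14.6% of all protein-coding genes had a thresholded summit. nAChRalpha6, a subunit of the nicotinic acetylcholine receptor, held the most of any gene of the set, with 22 over 92.9 kb and all in introns. Per length this was 23.2 per 100 kb, beside 24.3 over all protein-coding genes, and all genes over 50 kb had a median of 18 pooled summits. The best nAChRalpha6 summit, 57157 bp inside the gene, had a signal of 101.6 and rank 4022 and ranked 3990, 3405 and 8162 in the replicates. Only 3 of the 22 were held by all 3 replicate lists. For nAChRalpha5, the best summit ranked 6869, with ranks of 14053 and 4018 in replicates 1 and 2 and no region in replicate 3, and lay 187 bp upstream of NimC4, a phagocytosis receptor gene nested in it.

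The better-ranked promoter summits of receptor genes were at nAChRbeta1, 387 bp upstream at rank 7839, and at nAChRalpha1, 52 bp upstream at rank 10375. Both were held by all 3 lists, at ranks from 8428 to 12592 for nAChRbeta1 and from 8212 to 19307 for nAChRalpha1. The best nAChRalpha7 summit, at rank 8900, lay in its untranslated region. Rdl, the GABA-gated chloride channel gene, reached rank 14920 and GluClalpha, the glutamate-gated chloride channel gene, rank 16990. The muscle glutamate receptor genes GluRIIA and GluRIIB lie next to each other, and GluRIIA held 1 summit at rank 21761 while GluRIIB held none.

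Genes for making transmitters and loading them into vesicles included the best-ranked genes outside the threshold. Ddc, the decarboxylase that makes dopamine and serotonin in neurons and also serves cuticle hardening in the epidermis, had a summit 801 bp upstream with a pooled signal of 119.2 and rank 3045. It ranked 2078 in replicate 3 and 7782 in replicate 1 and had no region in replicate 2. ChAT, the enzyme that makes acetylcholine, had an intronic summit with a signal of 106.6 and rank 3687. This summit lay 14493 bp from the start of ChAT and 2596 bp from that of CG34283. It ranked 3078 and 11799 in replicates 1 and 2. In replicate 3, that position lay in 2 overlapping regions, one at rank 2370 with its summit 113 bp away and the nearer one, 89 bp away, at rank 15485. Support for ChAT in replicate 3 is therefore strong or weak depending on which region is taken.

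The vesicular acetylcholine transporter gene VAChT shares its first exon with ChAT, and its 2 summits, at ranks 12481 and 24045, are also counted at ChAT. VGlut, the vesicular glutamate transporter gene, had its best summit at rank 12847 in a coding exon. Vmat, the monoamine transporter gene, reached rank 15855 and ple, the tyrosine hydroxylase gene, rank 22304, each in 1 replicate list. Gad1, which makes GABA, had no pooled summit in the gene or its 2 kb upstream.

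The dopamine and octopamine receptor genes had the weakest signal of the 7 roles. Their 14 summits ran from 33.0 to 57.1 in signal, none lay within 500 bp of a start and none was held by all 3 lists. Dop1R2 led with rank 10855, held at rank 9950 in replicate 1 and 18002 in replicate 3. The best summit of Dop1R1 ranked 19979 and was held by replicate 1 alone, at rank 23105. The single Dop2R summit, at rank 27583, was in no replicate list, and the best of Oamb, an octopamine receptor gene, ranked 28648.

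For the 6 best-ranked genes with no thresholded summit, the reference bases at the best summit of each are printed to set beside elav (release 6, read along the named gene). They span chr2L:19121007-19121207 for Ddc, chr3R:18719894-18720094 for ChAT, chr2L:9828993-9829193 for nAChRalpha6, chr2L:3719565-3719765 for Shaw, chr3L:19586149-19586252 for Shal, where transcript bases were left out, and chr2L:14047295-14047495 for nAChRalpha5. Capitals mark the only match among them to any of the 3 motifs, CTCTC at Ddc.
Ddc: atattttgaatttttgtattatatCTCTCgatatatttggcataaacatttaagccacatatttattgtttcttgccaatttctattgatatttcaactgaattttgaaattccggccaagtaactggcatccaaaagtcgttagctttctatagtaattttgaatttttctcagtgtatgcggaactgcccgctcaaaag
ChAT: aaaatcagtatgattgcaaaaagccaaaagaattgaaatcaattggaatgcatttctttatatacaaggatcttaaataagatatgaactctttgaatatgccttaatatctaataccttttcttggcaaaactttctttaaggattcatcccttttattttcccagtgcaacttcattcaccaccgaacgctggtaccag
nAChRalpha6: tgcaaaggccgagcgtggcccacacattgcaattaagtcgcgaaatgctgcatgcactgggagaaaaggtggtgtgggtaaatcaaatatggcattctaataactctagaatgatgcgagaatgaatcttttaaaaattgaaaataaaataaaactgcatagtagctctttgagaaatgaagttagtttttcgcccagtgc
Shaw: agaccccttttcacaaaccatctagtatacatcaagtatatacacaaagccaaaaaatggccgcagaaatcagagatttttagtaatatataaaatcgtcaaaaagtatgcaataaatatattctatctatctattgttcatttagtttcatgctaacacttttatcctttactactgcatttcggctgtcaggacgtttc
Shal: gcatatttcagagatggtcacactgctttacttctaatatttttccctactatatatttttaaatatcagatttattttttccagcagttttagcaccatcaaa
nAChRalpha5: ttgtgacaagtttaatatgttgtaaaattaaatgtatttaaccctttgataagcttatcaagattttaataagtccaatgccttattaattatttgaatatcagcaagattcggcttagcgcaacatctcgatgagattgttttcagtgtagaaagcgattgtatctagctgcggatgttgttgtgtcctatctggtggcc

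For each of the 3 motifs, the share over all windows lay within the counting interval of the share at these genes. In windows of 201 bp around the 182 summits, TGTTTAC or its reverse complement GTAAACA occurred in 4.4% (2.24 to 8.43%) and in 5.25% of all 29980 windows on the arms. TATTTAC or GTAAATA, another forkhead-type heptamer, occurred in 6.59% (3.81 to 11.2%) beside 6.66% of all. GAGAG or CTCTC, a core of GAGA sites, occurred in 29.1% (23 to 36.1%) beside 25.6% of all. Both strands were searched and the letters of these motifs do not contain one another. The median G+C content was 38.3% in the windows of these genes and 39.3% in all windows.

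The genes of the set are long, with a median length of 29.7 kb beside 2.16 kb over all genes, and over all genes the share with a thresholded summit was higher in each longer class. Among genes up to 5 kb, 1 of 4 had a thresholded summit beside 9.21% of all genes of that length, and 3 of 4 a pooled one beside 46.1%. Between 5 and 20 kb these were 1 of 9 beside 26.3% and 8 of 9 beside 83.7%. From 20 to 50 kb they were 1 of 14 beside 39.5% and 14 of 14 beside 97.7%, and above 50 kb 0 of 10 beside 46% and 10 of 10 beside 96.2%. At matched length the pooled share of the longer genes was thus near that of all genes, while the thresholded share above 5 kb was lower in each class.

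**Figure D4:**
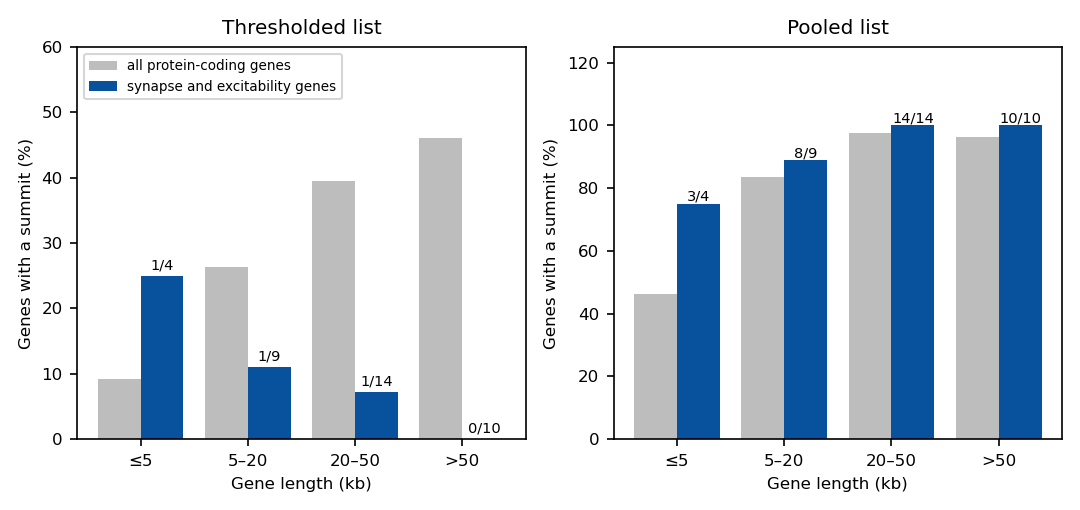
Percent of genes with a thresholded summit (left) or any pooled summit (right) in 4 classes of gene length in kb; blue bars are the 37 synapse and excitability genes, with counts above, and grey bars all protein-coding genes. The grey thresholded bars climb with length from 9.21% to 46%, while the blue ones go from 1 of 4 to 0 of 10.

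Per length, the set held fewer summits than genes at large. There were 11.7 pooled summits per 100 kb (10 to 13.5) in 1562 kb, beside 24.3 over all protein-coding genes, and 13.5 (11.6 to 15.6) without Snap25. The thresholded density was 0.32 per 100 kb (0.104 to 0.747) beside 2.14. Differences by length class ran the same way from 5 kb up, with 23.5 beside 29 at 5 to 20 kb, 14.5 beside 29.1 at 20 to 50 kb and 7.86 beside 20.7 above 50 kb (10.2 without Snap25). The 4 genes up to 5 kb had 35.7 beside 22.1, but 5 of their 8 summits belong to Syx1A, and without it the density was 18.5 (3.81 to 53.9). These are descriptions with no test.

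By chromosome arm, the 8 genes on 3L had 5.32 pooled summits per 100 kb beside 26.2 for all genes there, and 11.3 (6.83 to 17.7) without Snap25. On X (7 genes) the density was 9.47 (6.8 to 12.9) beside 24.2 for all genes. It was 11.9 (8.54 to 16) beside 23.5 on 3R (10 genes) and 21.1 (15.5 to 28.1) beside 26.3 on 2L (8 genes). KCNQ, brp and Vmat on 2R together had 17.1 (10.3 to 26.6) beside 23.1. On chromosome 4, unc-13 alone had 25.8 (13.3 to 45.1) beside 23.9, the only one of the 6 where the set was not lower. For 2L, 2R and 4 the value of all genes lay within the interval.

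The summits were also weaker and less often shared between replicates. Their median pooled rank was 20860 and their median signal 40.1, beside 15010 and 47.8 for all 29980 summits on the arms. All 3 replicate lists held 24 of the 182 (13.2%, 9.02 to 18.9%) beside 29% of all, 54 were held by 2 lists, 74 by 1 and 30 by none. Over all 29980 summits, 9568 were held by 2 lists and 9505 by 1. The share held by none was 16.5% at these genes and 7.37% over all. A summit counted as held where it lay in a region of the replicate list or within 200 bp of its nearest summit. At like rank the shares held by all 3 lists were: 5 of 5 at ranks up to 2415 beside 96.5% of all, then 5 of 6 up to rank 5000 beside 84.9%, and 8 of 16 up to rank 10000 beside 55.9%. Among the weaker regions they were 6 of 59 up to rank 20000 beside 12.3%, and 0 of 96 (0 to 3.85%) beyond rank 20000 beside 1.64%. Of the 182 summits of the set, 96 stood in that last range, where a region was seldom found in every replicate. In that range 30.2% of the summits of the set were in no replicate list, beside 19.7% of all.

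**Figure D5:**
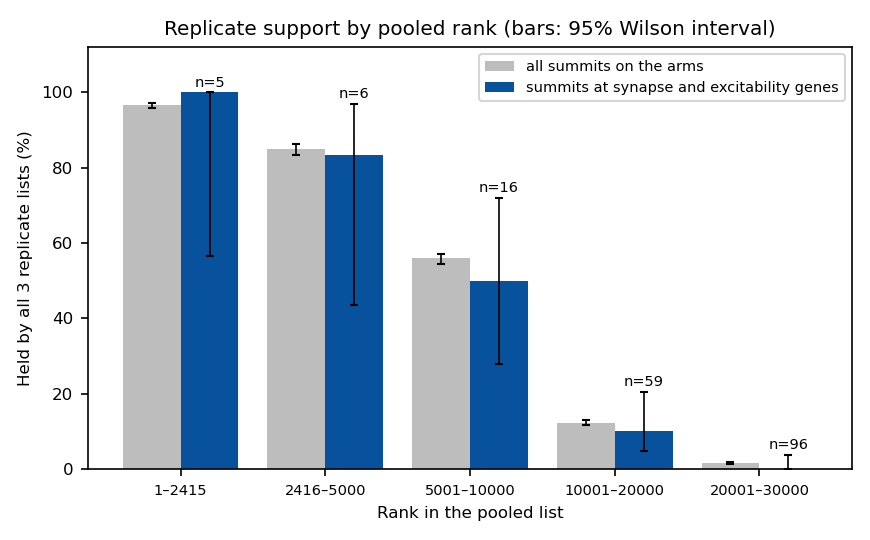
Percent of pooled summits held by all 3 replicate lists in 5 ranges of pooled rank, for the 37 genes (blue, number of summits above) and for all summits on the arms (grey), with 95% Wilson intervals. Both fall from over 96% at ranks up to 2415 to under 2% beyond 20000, and the grey share lies within the blue interval in every range.

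Replicate lists differed in what they held. Replicate 1 held 54.4% of the 182 summits, replicate 2 held 44% and replicate 3 held 41.2%, beside 67.5, 59.4 and 55.7% of all summits on the arms. The lists also differ in size, with 30000, 24326 and 22698 regions. Taking the 2415 strongest regions of each replicate alone, elav and KCNQ were called in all 3, Syx1A in replicates 1 and 2, nSyb in replicate 2, and Ddc and ChAT in replicate 3. That is 3, 4 and 4 of 37 genes, or 8.11, 10.8 and 10.8%, beside 14.6, 15.3 and 14.9% of all genes.

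Most of these summits were intronic. Of the 184 pairs of gene and summit, 67.9% lay in introns, 13.6% in untranslated regions, 8.15% within 500 bp of a start, 6.52% further upstream and 3.8% in coding exons. Over all genes the values were 49.3, 5.86, 25.9, 15.8 and 3.15%. The nearest start belonged to the gene itself for 60.9% of pairs, beside 67.5% over all genes. The longer gene models of the set move with these shares, and their part was not tested.

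Just beyond the 2 kb limit stood stronger summits that lay near other genes. A summit of rank 87 lay 3395 bp upstream of Syx1A and 178 bp from the start of CG18428. Upstream of eag, 4 thresholded summits at 2260 to 4551 bp, the best of rank 209, lay 177 to 539 bp from the start of pdgy, an acyl-CoA synthetase gene. One of rank 1381 lay 4791 bp upstream of Syt1 and 491 bp from daw, which encodes an Activin-type ligand. With 5 kb upstream, eag and Syt1 thus join the 3 genes, giving 13.5% beside 19% of all genes.

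A wider list of 88 other synaptic genes, under the same 7 role labels, gave a similar share. Of these genes, 7 held a thresholded summit (7.95%, 3.91 to 15.5%) beside the 14.6% of all genes. The labels were wider here, with serotonin receptors under the dopamine and octopamine label and inward rectifiers such as Irk1 under the voltage-gated label. The pooled density of these 88 genes was 16.9 per 100 kb (15.2 to 18.9), between that of the 37 genes and that of all genes. A pooled summit was present at 73 of the 88 (83%, 73.8 to 89.4%) beside 56.5% of all genes. No comparison at matched length is given for the 88 genes. The best was NaCP60E, a gene of the sodium channel family, at rank 190, but its summit lay 53 bp from the start of the ribosomal protein gene RpL41. Next came Irk1, an inward-rectifier potassium channel gene, at rank 286, and Syn, the synapsin gene, at rank 761 near Timp, a gene nested in it. The Irk1 summit lay 1689 bp from a start of Irk1 and equally far from one of CG46310. Rbp9, an RNA-binding protein gene of the same family as elav, had rank 1040, the calcium channel subunit gene Ca-beta 1069, Hk, which encodes a subunit of Shaker channels, 1545, and the histidine decarboxylase gene Hdc 2235. The Ca-beta summit lay 13502 bp from the nearest start of Ca-beta and 5346 bp from that of Boh2. Just outside the threshold were dlg1 (a synaptic scaffold) at rank 2661, sei (a potassium channel of the ERG type) at 3178, Csp (a vesicle chaperone) at 3294, Nmdar1 at 3547 and Gs2 at 3913. The Nmdar1 summit lay 4583 bp from the start of Nmdar1 and 1628 bp from that of Itpr. None of the 22 other genes under the ligand-gated receptor label had a thresholded summit, and none of the 9 in the set did. For the 22 genes the interval was 0 to 14.9%, which holds the 14.6% of all genes. In this wider list the label also holds G-protein-coupled receptors, such as mGluR, mAChR-A and GABA-B-R1.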

How the data were processed

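The samples were 3 biological replicates of ChIP-seq on whole prepupae, per the labels. The authors made every dm6 list from read alignments set against the same control file, per the deposited file sheets. The pooled list joins the reads of the 3 replicates. Which aligner and peak caller they ran is not given in the sources used here. Signal values are a score deposited by the authors, with no stated scale. They were used to rank regions within a list, and not compared in size between lists. The lists in the older build, dm3, were not used here.

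Summit positions are 1-based dm6. Gene models were from Ensembl release 115 (BDGP 6.54) and bases from RefSeq release 6. Region and gene positions stayed within the lengths of the reference arms. Chromosomes other than X, 2L, 2R, 3L, 3R, 4 and Y were left out, leaving 29980 of 30000 pooled regions. Where several regions of a replicate held a summit, which occurred for 9 summits in at least 1 list, the nearest was used. For 12 summits a replicate region was shared with a neighbouring summit.

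The 37 genes, their roles and the other list (90 names, of which 88 matched) were chosen with earlier results of these data known. All 37 genes are named. Replicate values are given for thresholded summits and the 2 best genes of each role, and other values given were chosen after they had been seen. No test was run, since there is 1 group. Counting was checked on planted summits. Alternatives were other windows, rank limits, matching rules and leaving out each replicate. Python 3.11.15 with pandas 2.3.3, numpy 2.4.6, scipy 1.17.1 and matplotlib 3.10.9 was used.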

Additional observations from a re-analysis of the deposited data

How the results depend on the processing

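The number of genes with a thresholded summit was 3, and 5 with 5 kb upstream (13.5% beside 19% of all genes). It was 2 with the gene body only (5.41% beside 7.65%) and 3 with 1 kb upstream (8.11% beside 13.1%). Within 500 bp of a start it was 2 (5.41% beside 8.96%), as when the nearest start had to be that of the gene (5.41% beside 12%). Each replicate was also left out, by requiring the summit among the 2415 strongest regions of the remaining replicates. That left 2 to 3 genes, or 5.41 to 8.11% beside 10.1 to 10.6% of all genes. Syx1A was lost without replicate 1 and without replicate 2, elav with the gene body only, and KCNQ within 500 bp of a start or when the nearest start had to be that of the gene. The 35 genes with a pooled summit became 11 within 500 bp of a start (29.7% beside 37.8% of all genes). They became 15 among the best-ranked 10000 regions (40.5% beside 34.2%) and 7 among the best-ranked 5000 (18.9% beside 23.9%). When all 3 lists had to hold the summit they became 14 (37.8% beside 30.5%). For the pooled summits, leaving out a replicate meant that both remaining lists had to hold the summit, while the main count required no replicate list. That stricter rule gave 17 to 23 genes, with no share of all genes given here. The 182 pooled summits became 15 within 500 bp of a start, and 34 to 46 where both remaining lists had to hold them. The density of 11.7 per 100 kb (24.3 over all protein-coding genes) became 1.73 among the best-ranked 10000 regions (8.59 over all). Among the best-ranked 5000 it was 0.704, with no value of all genes given here. Without Snap25 the density over the whole pooled list was 13.5. Leaving out Snap25 or Syx1A was chosen after seeing the data. The median best rank of 10855, beside 6806 over all genes with a pooled summit, became 12664 with the gene body only. The share held by all 3 lists ran from 9.89 to 18.7% under 3 other matching rules, beside 20.1 to 39.5% of all summits. The cause of these shifts was not tested. No paired analysis was possible because there is 1 group. Read depths and control libraries were not analysed here, so weak regions cannot be told from background one by one.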
